A study of Mus musculus with 8 samples.

Results

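The genes described here encode the machinery that docks, primes and fuses synaptic vesicles, together with their close paralogues. They were chosen with earlier results of these data known. The choice was made by gene symbol, as the synaptotagmins (Syt), syntaxins (Stx), syntaxin-binding proteins (Stxbp), vesicle-associated membrane proteins (Vamp), Snap genes, Sv2 glycoproteins, synapsins (Syn), Rims and Unc13 genes, complexins (Cplx), Nsf, Bsn, Pclo and Prrt2. Of 72 genes with such a symbol, 66 had at least 10 counts in 4 or more of the libraries and are the members, out of 55471 Ensembl genes in all, of which 19415 met the same count limit. The 6 genes below it were Cplx4, Stx11, Stx19, Syt8, Syt15 and Vamp9. The assay sequenced polyadenylated RNA of nuclei from excitatory forebrain neurons in male C57BL/6J mice aged 6 to 8 weeks, all of genotype CaMKIIalpha-Cre:SUN1-sfGFP. In these mice Cre recombinase under a CaMKIIalpha promoter switches on a GFP-tagged nuclear envelope protein, and tagged nuclei are pulled from a forebrain homogenate with an antibody, a method called INTACT. The 4 Pilo samples came from mice given 1 mg/kg scopolamine methyl nitrate, which blocks muscarinic receptors mainly outside the brain, and 30 min later 340 mg/kg pilocarpine hydrochloride, a muscarinic agonist that triggers seizures. Seizures were given 100 min to develop, and mice with a Racine score of seizure behaviour of 3 to 5 were used. The 4 Mock samples came from mice given scopolamine and saline, with no selection by seizure score. The drug and the seizures came together in every Pilo sample and cannot be told apart, and since no label ties a sample to 1 mouse, the p-values refer to the spread among samples, which may be technical.

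Release of neurotransmitter depends on SNARE proteins. Syntaxin and SNAP-25 on the plasma membrane and VAMP (synaptobrevin) on the vesicle zip into a bundle that pulls the membranes together. Munc13 (Unc13) proteins guide the assembly of this bundle, RIM, Bassoon and Piccolo hold vesicles and calcium channels at the release site, synaptotagmins sense calcium, and complexins hold the partly zipped bundle ready. The ATPase NSF takes spent bundles apart, synapsins tether the reserve of vesicles, and other syntaxins and VAMPs serve fusion in the Golgi, endosomes and endoplasmic reticulum. Nuclear RNA holds both spliced transcripts and transcripts that still carry introns, and it is not a measure of protein or of release.

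The deposited counts held 29356788 to 36161448 exonic counts per library in one table. A second table held 27135364 to 33715773 exonic and 11928054 to 16703475 intronic counts. Levels are in CPM, counts relative to the library total after TMM scaling, and per-library values are given for replicates 1 to 4 in turn. The 6 excitatory neuron markers were detected in every library, with a summed level of 2802 to 3296 CPM in Pilo and 2479 to 3089 CPM in Mock, and 3 of them (Neurod6, Tbr1 and Nrgn) were higher past the test. Markers of other cells were also detected in every library, and none of the marker genes was at 0. The 6 oligodendrocyte markers summed to 396 to 707 CPM in Pilo and 311 to 420 CPM in Mock, with 1 gene (Mbp) higher past the test. The 7 inhibitory neuron markers summed to 222 to 373 CPM in Pilo and 194 to 256 CPM in Mock, with 2 genes (Gad1 and Gad2) higher. The 6 astrocyte markers summed to 894 to 1316 CPM in Pilo and 743 to 1097 CPM in Mock and the 3 oligodendrocyte precursor markers to 21.6 to 50.5 CPM in Pilo and 18.9 to 37.5 CPM in Mock. The 5 microglial markers summed to 11.5 to 19.5 CPM in Pilo and 9.64 to 17.0 CPM in Mock. The 4 endothelial markers stood at 36.8 CPM in Pilo replicate 3, against 5.68 to 8.39 CPM in the other Pilo libraries and 3.84 to 12.9 CPM in Mock. The part of these cells in the results was not tested. Without Pilo replicate 3, 22 members were higher and 6 lower, but Bsn (adjusted p = 0.0561), Syt9 (0.0801) and Stx18 (0.114) lost their calls while Snap23 (0.0185), Sv2b (0.0474) and Syt17 (0.0142) gained one. In such bulk samples, fewer nuclei of a type and less RNA per nucleus cannot be told apart. The activity-induced gene Fos stood at 112, 123, 186 and 132 CPM in Pilo and 8.29, 12.7, 8.90 and 29.2 CPM in Mock.

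Exonic RNA of the fusion machinery was higher in Pilo for 22 of the 66 members and lower for 6, while 38 did not pass the test (edgeR's quasi-likelihood test, Benjamini-Hochberg adjusted p under 0.05 over all genes). This is 42.4% of members, 33.3% higher and 9.09% lower. Without Pilo replicate 4, 3 members were lower. Over all 19176 genes tested, 31.8% were called, 15.6% higher and 16.2% lower. With the replicate number as a block, 31 members were higher and 9 lower, against 47.0% of all genes, 23.8% higher and 23.2% lower. The median log2 fold change was 0.14 for the members and 0.005 over all genes. Among the 10173 genes with a mean of 10 CPM or more, 23.3% were higher and 17.4% lower. At this level were 56 members, 20 of them higher and 5 lower. Their median log2 fold change was 0.15, against 0.04 over all genes at this level. The 4 Pilo libraries lay wholly above the 4 Mock libraries for 22 members and wholly below for 7, against 15.7% and 16.2% of all genes. Summed over the members, exonic RNA stood at 12409 to 13061 CPM in Pilo and 11092 to 11293 CPM in Mock, with no overlap. The largest rise on the log2 scale was 0.93 and the median size among called members was 0.41, against 0.51 among all called genes.

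**Figure D1:**
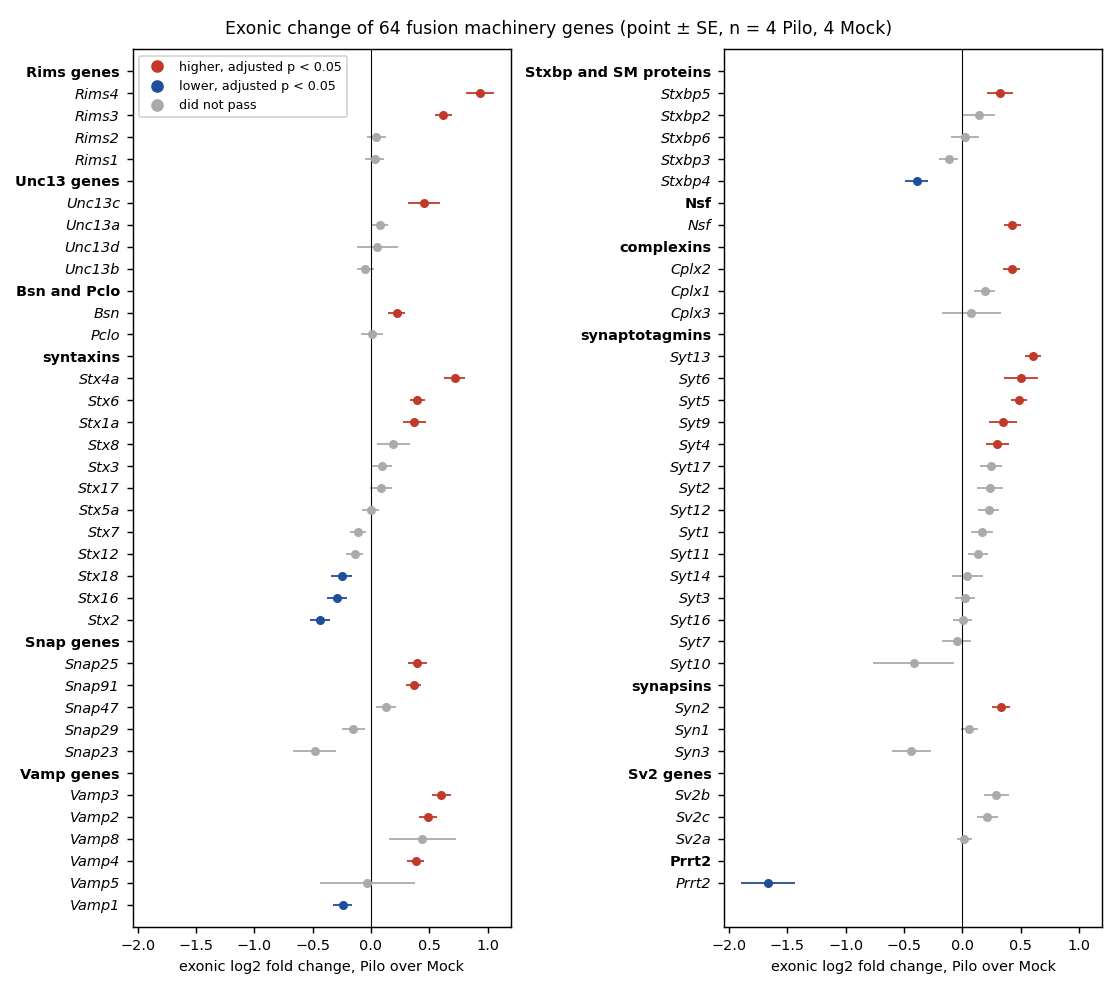
Exonic log2 fold change, Pilo over Mock, of 64 members, grouped by family; points are estimates, bars ± 1 SE, and colour marks members past the test (red higher, blue lower, grey not). Members called higher run between 0.22 (Bsn) and 0.93 (Rims4), and Prrt2 stands apart at -1.67.

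The exonic RNA of genes of the release-site scaffold and of priming moved unevenly within families. Of 4 Rims genes, 2 rose and 2 did not pass. Counts by family, here and below, stand beside 15.6% of all genes tested higher and 16.2% lower. Among genes with a mean of 10 CPM or more, these shares were 23.3% and 17.4%. Rims4 and Rims3 encode short gamma-RIM proteins, which share only the C-terminal part of the long RIM scaffolds. Rims4 (chromosome 2, 163859751 to 163918683, minus strand, GRCm38) stood at 61.9, 88.0, 85.3 and 71.1 CPM in Pilo and 33.4, 44.6, 43.3 and 39.0 CPM in Mock. Every Pilo library was above every Mock library, and the log2 fold change was 0.93 (SE 0.12, adjusted p = 0.000111). Rims3 (chromosome 4, 120854816 to 120896579, plus strand) stood at 199, 210.1, 188 and 205 CPM in Pilo and 119.7, 134, 132 and 136 CPM in Mock. Its groups did not overlap either, with a log2 change of 0.62 (SE 0.07, adjusted p = 4.67e-05). By contrast Rims1, the long RIM scaffold that binds Rab3, Munc13 and calcium channels, stood at 278, 245, 218 and 245 CPM in Pilo and 248, 236, 242 and 237 CPM in Mock. Its Pilo values spread around the Mock values, with a log2 change of 0.03 (SE 0.08, adjusted p = 0.796). Rims2, the other long RIM, gave 0.05 (SE 0.08, adjusted p = 0.719).

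Unc13a, which encodes the priming factor Munc13-1, stood at 1206, 1177, 1175 and 1158 CPM in Pilo and 1099.6, 1072, 1164 and 1139.8 CPM in Mock. The groups overlapped, and the log2 fold change was 0.08 (SE 0.07, adjusted p = 0.473). Of the 4 Unc13 genes only Unc13c (Munc13-3) passed, at 0.46 (SE 0.14, adjusted p = 0.0211), at 8.58 to 11.8 CPM in Pilo and 6.21 to 8.82 CPM in Mock with the groups overlapping. Leaving out Mock replicate 2 ended that call (adjusted p = 0.0668), as did leaving out Pilo replicate 4 (0.0645). Of the 2 giant scaffold genes, Bsn (Bassoon) rose by 0.22 (SE 0.07, adjusted p = 0.035) and Pclo (Piccolo) gave 0.01 (SE 0.09, adjusted p = 0.943). The Bsn call was lost without any one of Mock replicates 1, 2 and 3 and Pilo replicates 2, 3 and 4, at adjusted p of up to 0.0737, and was at 0.0755 without the low-count filter and 0.0573 in the exonic columns of the second table. Like the other members named outside the rule, Bsn, Pclo and Unc13c were chosen after their values were seen.

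The neuronal SNARE genes Snap25, Stx1a and Vamp2 all rose, those of the target membrane and that of the vesicle. Snap25 (chromosome 2, 136713453 to 136782428, plus strand), a target membrane SNARE anchored by lipid, stood at 1171, 1208, 1182 and 1082 CPM in Pilo and 814, 919.9, 932 and 856 CPM in Mock. The lowest Pilo library was above the highest Mock library, and the log2 fold change was 0.40 (SE 0.08, adjusted p = 0.00197). Stx1a, one of the syntaxins of the release site, stood at 329, 436, 364 and 374 CPM in Pilo and 263, 320.0, 267 and 312 CPM in Mock. The groups were apart by a narrow gap, with a log2 change of 0.37 (SE 0.10, adjusted p = 0.0123). Vamp2 (synaptobrevin 2), the main vesicle SNARE of the forebrain, stood at 365, 427, 411 and 366 CPM in Pilo and 276, 277, 281 and 286 CPM in Mock. The Mock libraries lay close together and all below Pilo, with a log2 change of 0.49 (SE 0.08, adjusted p = 0.000405).

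**Figure D2:**
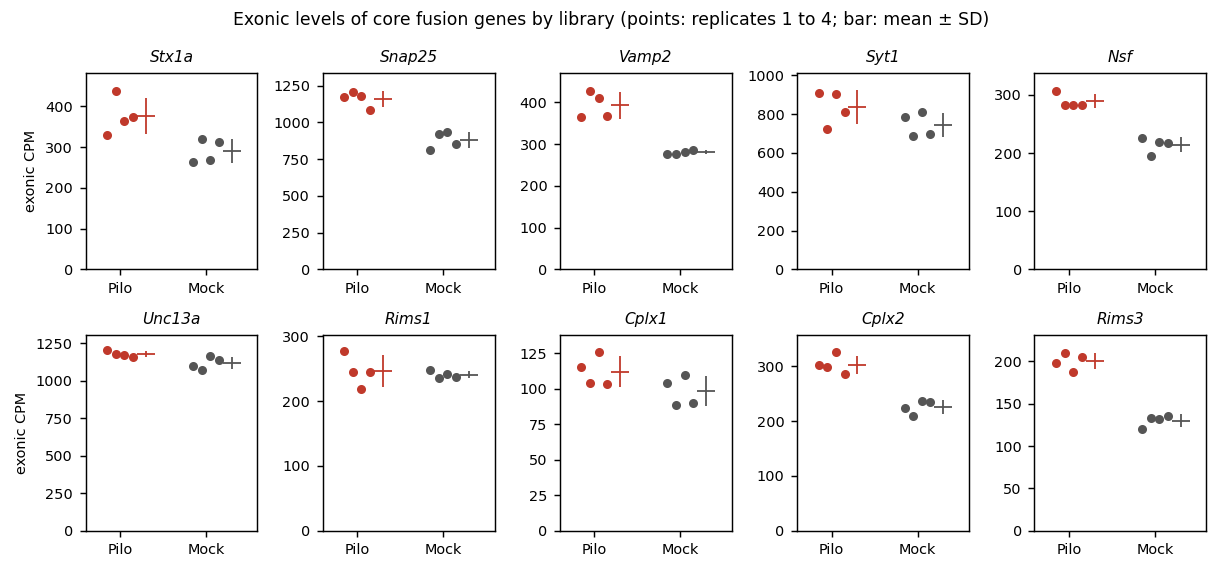
Exonic CPM in each library (points, replicates 1 to 4 from left to right within a group) with mean ± SD (cross) for 9 core fusion genes and Rims3, Pilo left of Mock; the axes start at 0. Snap25, Vamp2, Stx1a, Nsf, Cplx2 and Rims3 have no overlap between the groups, while Syt1, Unc13a, Rims1 and Cplx1 overlap.

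Of 13 syntaxins, 4 were higher, 3 lower and 6 not called, against 15.6% of all genes higher and 16.2% lower. Stx4a, a plasma membrane syntaxin of broad expression (chromosome 7, 127824294 to 127849019, plus strand), stood at 57.3, 76.6, 63.1 and 68.7 CPM in Pilo and 36.5, 41.7, 40.8 and 42.6 CPM in Mock. The groups were well apart, with a log2 change of 0.72 (SE 0.09, adjusted p = 9.49e-05). Its exons overlap those of a gene on the opposite strand, and the strand setting of the counting is not given in the sources used here. Stx6, a SNARE of the trans-Golgi network and endosomes, stood at 92.6, 94.8, 89.6 and 86.4 CPM in Pilo and 66.4, 67.6, 69.4 and 72.4 CPM in Mock. No Pilo library came down to the Mock range, and the log2 fold change was 0.40 (SE 0.07, adjusted p = 0.000585). Stx2, another plasma membrane syntaxin, went the other way, at 54.0, 67.0, 64.2 and 61.4 CPM in Pilo and 83.3, 91.1, 80.9 and 78.2 CPM in Mock. Every Pilo value was lower, with a log2 change of -0.44 (SE 0.08, adjusted p = 0.00136). The other lower syntaxins were Stx16, of the trans-Golgi network, at -0.29 (SE 0.09, adjusted p = 0.0199), and Stx18, of the endoplasmic reticulum, at -0.25 (SE 0.09, adjusted p = 0.0456). The Stx18 groups overlapped, with Pilo replicate 1 at 25.8 CPM and Mock replicate 3 at 25.4 CPM. Its exons overlap those of Gm42858 and Nsg1 on the opposite strand, by 1482 bases counted over both. The Stx16 call was lost without Mock replicate 2 (adjusted p = 0.0701) and without Pilo replicate 4 (0.0697). The Stx18 call was lost without any one library but Pilo replicate 1, at adjusted p of up to 0.131, and was at 0.0536 with the RLE scaling and 0.074 without the low-count filter. Syntaxins of the Golgi and of endosomes that did not pass were Stx5a at -0.00 (SE 0.08), Stx7 at -0.11 (SE 0.07), Stx8 at 0.19 (SE 0.14, adjusted p = 0.341) and Stx12 at -0.14 (SE 0.07, adjusted p = 0.159, or 0.0455 with the replicate number as a block).

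Among 6 Vamp genes, 3 rose, 1 fell and 2 did not pass. Vamp3 (cellubrevin), a SNARE of recycling endosomes, stood at 46.2, 54.6, 44.3 and 45.7 CPM in Pilo and 29.8, 31.8, 32.2 and 32.0 CPM in Mock. The groups were apart, with a log2 change of 0.60 (SE 0.08, adjusted p = 0.000136). Vamp4, a SNARE of the trans-Golgi network and endosomes, stood at 98.7, 90.3, 84.4 and 87.2 CPM in Pilo and 73.0, 69.1, 69.4 and 65.2 CPM in Mock. Its lowest Pilo value exceeded its highest Mock value, with a log2 change of 0.38 (SE 0.07, adjusted p = 0.00145). Vamp1, the close paralogue of Vamp2 on synaptic vesicles, was lower, at 149, 121, 137 and 121 CPM in Pilo and 159.9, 153, 160.0 and 152 CPM in Mock. The groups did not overlap, although Pilo replicate 1 came close to the Mock range, and the log2 fold change was -0.24 (SE 0.08, adjusted p = 0.034). That call was lost without any one of the 4 Mock libraries, Pilo replicate 2 or Pilo replicate 4, at adjusted p of up to 0.123. Vamp5 and Vamp8 lay at or below 1.37 CPM in every library.

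The Snap genes do not all share a role, with 2 of 5 higher and 3 not called. Snap91 encodes AP180, a clathrin assembly protein of vesicle recycling that is no SNARE. It stood at 302, 296, 278 and 298 CPM in Pilo and 229, 231, 224 and 227 CPM in Mock. The libraries of each group lay close together and the groups were apart, with a log2 change of 0.37 (SE 0.07, adjusted p = 0.00118). Snap23, the broadly expressed paralogue of Snap25, stood at 25.6, 44.7, 50.7 and 34.3 CPM in Pilo and 46.6, 60.6, 56.3 and 53.1 CPM in Mock. Pilo replicate 3 lay inside the Mock range and the log2 fold change of -0.48 (SE 0.18, adjusted p = 0.0708) did not pass. It passed at 0.0185 without Pilo replicate 3, at 0.0239 with DESeq2, at 0.0499 in the exonic columns of the second table and at 0.000988 with the replicate number as a block.

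Among the proteins that act on SNARE bundles, Nsf, Cplx2 and Stxbp5 rose and Stxbp4 fell. Nsf, the ATPase that takes bundles apart, stood at 307, 282, 284 and 283 CPM in Pilo and 226, 196, 219 and 217 CPM in Mock. The groups were far apart relative to their spread, with a log2 change of 0.43 (SE 0.07, adjusted p = 0.000722). Cplx2, a complexin of forebrain excitatory neurons, stood at 302, 299, 325 and 286 CPM in Pilo and 223, 209, 237 and 234 CPM in Mock. No values overlapped, with a log2 change of 0.42 (SE 0.08, adjusted p = 0.000927). Cplx1, its paralogue, stood at 115, 104, 126 and 103 CPM in Pilo and 104, 88.2, 109.9 and 90.2 CPM in Mock. Here the groups overlapped while each Pilo library exceeded the Mock library of its own number, with a log2 change of 0.19 (SE 0.09, adjusted p = 0.141, or 0.00447 with the replicate number as a block). Stxbp4 (Synip), which binds syntaxin 4, fell by 0.39 on the log2 scale (SE 0.10, adjusted p = 0.00845). Stxbp5 (tomosyn), an inhibitor of SNARE assembly, rose by 0.32 (SE 0.11, adjusted p = 0.0408) with the groups overlapping. The Stxbp5 call was lost without any one of Mock replicates 2, 3 and 4 and Pilo replicates 1, 2 and 4, at adjusted p of up to 0.113, and was at 0.0613 in the exonic columns of the second table.

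Of 15 synaptotagmins, 5 rose and 10 did not pass, against 15.6% of all genes higher. The main calcium sensor of fast release was among those that did not pass. Syt13 (chromosome 2, 92915098 to 92956058, plus strand), an atypical synaptotagmin without the usual calcium-binding residues, had the smallest p of all members. It stood at 257, 269, 251 and 263 CPM in Pilo and 168, 178, 176 and 159.6 CPM in Mock. Both groups were tight and far apart, with a log2 change of 0.61 (SE 0.07, adjusted p = 4.05e-05). Syt5, a calcium-binding synaptotagmin found on dense-core vesicles, stood at 168, 179.7, 155 and 163 CPM in Pilo and 117, 123, 119 and 116 CPM in Mock. All Pilo libraries were higher, with a log2 change of 0.49 (SE 0.07, adjusted p = 0.000213). Syt1, the fast calcium sensor of synaptic vesicles, stood at 907, 724, 903 and 813 CPM in Pilo and 783, 689, 811 and 697 CPM in Mock. The groups overlapped, each Pilo library exceeded the Mock library of its number, and the log2 fold change was 0.17 (SE 0.09, adjusted p = 0.202, or 0.0116 with the block). Syt7, a slow, high-affinity sensor, gave -0.05 (SE 0.12, adjusted p = 0.804). The other rises were Syt6 at 0.51 (SE 0.14, adjusted p = 0.0181), Syt4 at 0.30 (SE 0.10, adjusted p = 0.0294) and Syt9 at 0.35 (SE 0.12, adjusted p = 0.044). The Syt6 call was lost without Pilo replicate 2 (adjusted p = 0.0528), and that of Syt4 without Mock replicate 2, Mock replicate 4 or Pilo replicate 1 (up to 0.0816). The Syt9 call was lost without any one library but Pilo replicate 1 (up to 0.112), and it was at 0.126 without the low-count filter and 0.0537 in the exonic columns of the second table. Exons of Syt4 share 566 bases with a gene on the opposite strand, those of Syt6 505 and those of Syt7 384.

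Among the glycoproteins and tethers of the vesicle, 1 of 6 genes passed, the synapsin gene Syn2. Sv2b, one of the vesicle glycoproteins, stood at 450.0, 344, 347 and 333 CPM in Pilo and 331, 269.6, 320.2 and 284 CPM in Mock. The groups were apart by the smallest of gaps, and the log2 fold change of 0.29 (SE 0.11, adjusted p = 0.0515) lay at the threshold. It passed at 0.000447 with the block, at 0.0271 with DESeq2, at 0.0456 with RLE scaling, at 0.02 without the low-count filter, and at 0.0413, 0.0456, 0.0499 and 0.0474 without Mock replicate 1, Mock replicate 3, Pilo replicate 2 and Pilo replicate 3. Sv2a, the binding site of the antiseizure drug levetiracetam, stood within 311 to 322 CPM in Pilo and 305 to 319.8 CPM in Mock, with a log2 change of 0.02 (SE 0.07, adjusted p = 0.877). Of 3 synapsins, Syn2 rose by 0.33 (SE 0.07, adjusted p = 0.00421), while Syn1 gave 0.06 (SE 0.07) and Syn3 gave -0.44 (SE 0.17, adjusted p = 0.0615). Syn3 passed without Mock replicate 2 (adjusted p = 0.0307), without Pilo replicate 1 (0.037), at 0.0483 with DESeq2, at 0.045 with a minimum count of 50, at 0.031 without the low-count filter and at 0.00562 with the block. Exons of Syn3 share 1733 bases with Timp3 on the opposite strand.

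Prrt2, a presynaptic membrane protein that restrains SNARE assembly and is mutated in paroxysmal dyskinesia and infantile seizures in humans, had the largest exonic change in size of any member. It stood at 0.714, 1.11, 0.670 and 1.09 CPM in Pilo and 3.45, 2.27, 2.72 and 2.95 CPM in Mock. The groups did not overlap, with a log2 change of -1.67 (SE 0.23, adjusted p = 0.000141). These values rest on 21 to 34 counts per library in Pilo and 71 to 104 in Mock. In the GENCODE vM21 annotation, Prrt2 (chromosome 7, 127017531 to 127021211, minus strand) shares 2918 of its 3159 exonic bases with Gm42742, an overlapping gene on the same strand that itself had 1 to 4 counts, which leaves 241 bases of its own. The second table gave Prrt2 28 to 118 exonic counts but 4581 to 6645 intronic counts, for a gene with 522 non-exonic bases. Its exonic and intronic counts together did not pass, at 0.15 (adjusted p = 0.42). The exonic change is therefore given with its counts, and how reads over the shared bases were counted is not given in the sources used here.

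Levels per length, in RPKM (CPM per kilobase of exon), were set in order for the genes named here. In Mock, Snap25 led at a mean of 129.7 RPKM, followed by Syt7 at 121, Stx1a at 109, Syt1 at 89.4, Unc13a at 88.6 and Vamp2 at 73.6. The Mock ranges of Snap25 (119.9 to 137 RPKM) and Syt7 (107 to 141) overlapped, as did those of Syt7 and Stx1a (98.6 to 120.0), and those of Syt1 (82.6 to 97.3) and Unc13a (84.9 to 92.2). Vamp2 (72.5 to 75.2) lay below all of these. In Pilo, Snap25 averaged 171 RPKM, Stx1a 141, Syt7 117, Vamp2 103, Syt1 100.4 and Unc13a 93.4. The lowest members in Mock were Vamp5, Vamp8, Unc13d, Syn3, Unc13c, Stx8 and Prrt2, each under 1 RPKM on average. For Prrt2 the length used includes the 2918 of its 3159 exonic bases that are shared with Gm42742. How reads there were counted is not given in the sources used here, so its low place is uncertain.

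Intronic RNA, read from the second table, gave 20 of 63 members higher and 10 lower, or 47.6% called, 31.7% higher and 15.9% lower. Over all 13318 genes tested, 41.4% were called, 19.6% higher and 21.9% lower. With the replicate number as a block, 31 members were higher and 16 lower, against 56.9% of all genes in that fit, 27.7% higher and 29.2% lower. The median log2 fold change was 0.15 for the members and -0.00 over all genes. Vamp8 had too few intronic counts, and Syn1 and Vamp3 were listed at 0 intronic counts in every library. The 14 members higher in both exons and introns included Cplx2, Nsf, Rims3, Rims4, Snap25, Snap91, Stx4a, Stx6, Syn2, Syt4, Syt5, Syt6 and Syt13. Stx2, Stx16, Stx18 and Stxbp4 were lower in both. Intronic log2 fold changes were 0.65 for Stx4a (SE 0.10, adjusted p = 0.000164), 0.63 for Rims4 (SE 0.15, adjusted p = 0.00318), 0.57 for Nsf (SE 0.10, adjusted p = 0.000395), 0.42 for Snap25 (SE 0.11, adjusted p = 0.00657) and -0.49 for Stx2 (SE 0.10, adjusted p = 0.00132). Intronic calls were lost in some fits without a library for Stxbp4 (adjusted p of up to 0.132, and 0.0514 with RLE scaling), Syt4 (0.153, and 0.0545 without the low-count filter), Cplx1 (0.118), Rims2 (0.102), Stx16 (0.0871) and Syt6 (0.0847). The libraries were Mock replicates 1, 2 and 4 and Pilo replicates 1, 3 and 4 for Stxbp4, Mock replicates 2, 3 and 4 and Pilo replicates 1 and 2 for Syt4, Mock replicates 1, 2 and 3 and Pilo replicates 1 and 4 for Cplx1, Mock replicates 2 and 3 and Pilo replicates 1 and 4 for Rims2, Mock replicates 1 and 2 and Pilo replicate 4 for Stx16, and Mock replicate 1 and Pilo replicates 2 and 3 for Syt6, numbered as in the second table.

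Intronic RNA of several release SNAREs and of their partners did not pass the test. Stx1a gave an intronic log2 fold change of 0.11 (SE 0.14, adjusted p = 0.57), Vamp2 0.66 (SE 0.28, adjusted p = 0.0733, or 0.00616 with the block) on 2.69 to 9.73 CPM and Vamp4 0.27 (SE 0.11, adjusted p = 0.0689, or 0.00534 with the block). Vamp2 also passed without Mock replicate 3 (adjusted p = 0.0267) or Pilo replicate 1 (0.0189) and Vamp4 without Mock replicate 2 (0.0469) or with DESeq2 (0.0439). Unc13a gave 0.06 (SE 0.09, adjusted p = 0.61) and Rims1 0.20 (SE 0.11, adjusted p = 0.147, or 0.00861 with the block). Syt1, whose exonic change did not pass, rose in introns by 0.38 (SE 0.11, adjusted p = 0.0098), with 921, 893, 871 and 1143 CPM in Pilo above 755, 683, 688 and 819.7 CPM in Mock in every library. Pclo likewise rose by 0.38 (SE 0.08, adjusted p = 0.00207), at 287 to 326 CPM in Pilo and 227 to 232 CPM in Mock. Exonic and intronic counts together called 22 of 66 members higher and 8 lower, against 37.2% of 14816 genes, 19.1% higher and 18.2% lower. With the block these were 31 higher and 11 lower, against 53.9% of all genes, 28.9% higher and 25.1% lower. On that measure Sv2b passed at 0.41 (adjusted p = 0.00734) and Snap23 at -0.62 (adjusted p = 0.00811). Syt1 passed at 0.24 (adjusted p = 0.0348), which was lost without any one of Mock replicates 2, 3 and 4 and Pilo replicates 1, 2 and 4 (up to 0.105) and without the low-count filter (0.074).

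**Figure D3:**
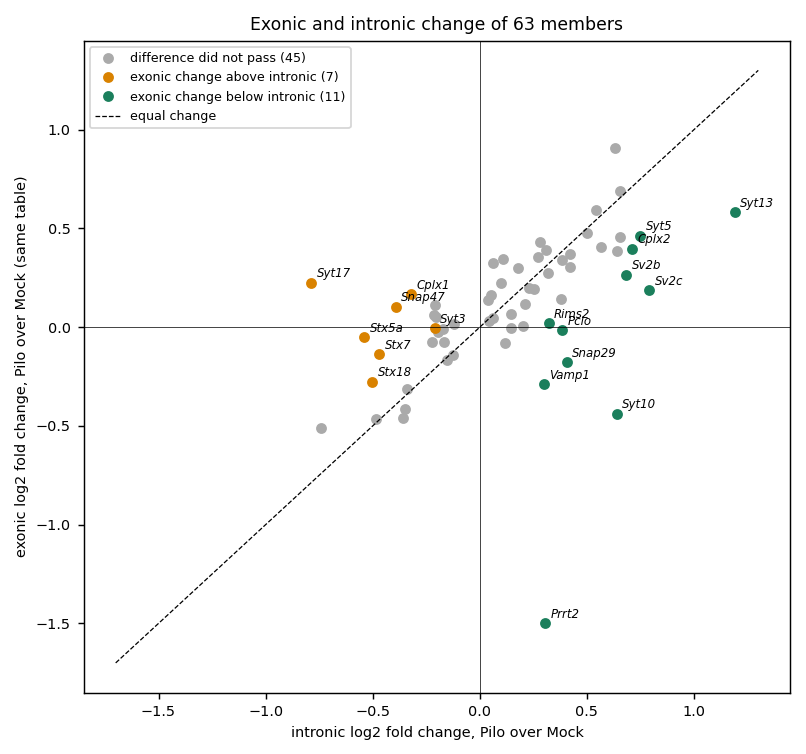
Exonic against intronic log2 fold change, Pilo over Mock, of the 63 members tested in both regions of the second table; the dashed line marks equal change, and colour marks members whose 2 changes differ past the test of the difference. Of these, 7 lie above the line (orange, Syt17 farthest) and 11 below it (green, Prrt2 farthest).

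The change of exonic RNA was tested against that of intronic RNA within each gene, as the interaction of region with treatment. The exonic change lay above the intronic one for 7 of 63 members and below it for 11, against 26.2% of all 13047 genes, 13.5% above and 12.8% below. Across the members, exonic and intronic log2 fold changes had a Pearson r of 0.50, or 0.65 without Prrt2, and 0.79 across all genes. These are descriptions across genes, whose paired values come from the same libraries. Replicate numbers in the values that follow are those of the second table.

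Syt17 (chromosome 7, 118380717 to 118448222, minus strand), an atypical synaptotagmin also called B/K protein, had the largest difference upward. Its intronic RNA stood at 64.7, 75.7, 68.2 and 61.9 CPM in Pilo and 111, 118, 121 and 117 CPM in Mock. The intronic groups were far apart, with a log2 change of -0.79 (SE 0.10, adjusted p = 1.91e-05). Its exonic RNA, in the first table, stood at 60.0, 57.6, 47.4 and 53.4 CPM in Pilo and 45.1, 51.4, 39.9 and 47.5 CPM in Mock, with overlap and a log2 change of 0.25 (SE 0.09, adjusted p = 0.0612). That passed at 0.00227 with the block, at 0.0433 with DESeq2, and at 0.0381 and 0.0142 without Mock replicate 2 and Pilo replicate 3 of that table. The difference between the regions was 1.02 (SE 0.11, adjusted p = 6.61e-05). Cplx1 showed the same order with a smaller size. Its intronic RNA stood at 56.4, 65.2, 63.4 and 49.3 CPM in Pilo and 75.2, 78.1, 74.8 and 64.5 CPM in Mock, overlapping only between Pilo replicate 2 and Mock replicate 4. The intronic change was -0.32 (SE 0.11, adjusted p = 0.0301) and the difference 0.49 (SE 0.09, adjusted p = 0.00158). Snap47, Stx5a and Stx7 differed by 0.49, 0.49 and 0.33 with lower introns and exons not called. The second table gave Stx5a 0.66 to 0.72 of its exonic counts in the first. Stx18 and Syt3 differed by 0.23 and 0.20. Their calls were lost without any one of Mock replicates 1, 2 and 3 and Pilo replicates 2, 3 and 4 for Stx18 (up to 0.147), and without any one library but Mock replicate 1 for Syt3 (up to 0.104).

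**Figure D4:**
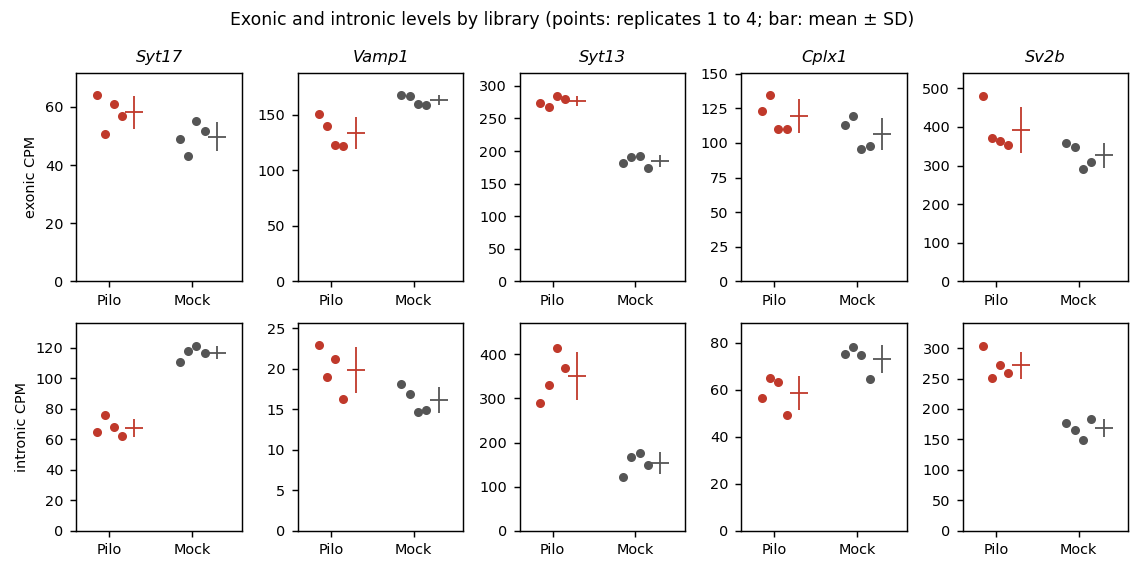
Exonic CPM (top) and intronic CPM (bottom) from the second table in each library for Syt17, Vamp1, Syt13, Cplx1 and Sv2b, Pilo left of Mock (points, replicates 1 to 4 of that table; cross, mean ± SD; axes start at 0). Intronic Syt17 falls to 61.9 to 75.7 CPM in Pilo, against 111 to 121 CPM in Mock, while intronic Syt13 and Sv2b are higher in every Pilo library.

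In the other direction, the exonic change lay below the intronic one. Syt13 intronic RNA stood at 289, 329.6, 414 and 370.0 CPM in Pilo and 122, 168, 176 and 148 CPM in Mock. The lowest Pilo library was well above the highest Mock library, the intronic log2 fold change of 1.19 (SE 0.13, adjusted p = 7.62e-06) was the largest of any member, and the difference was -0.61 (SE 0.11, adjusted p = 0.00145). Sv2b intronic RNA stood at 303, 252, 272 and 259.7 CPM in Pilo and 176, 166, 149.8 and 184 CPM in Mock. These groups were apart by a wide gap, unlike its exonic values, with an intronic change of 0.68 (SE 0.10, adjusted p = 7.05e-05) and a difference of -0.42 (SE 0.08, adjusted p = 0.00198). Vamp1 intronic RNA stood at 22.9, 18.9, 21.2 and 16.3 CPM in Pilo and 18.1, 16.8, 14.7 and 15.0 CPM in Mock. Those groups overlapped and the intronic change of 0.30 (SE 0.14, adjusted p = 0.1, or 0.034 with the block) did not pass, while the difference from its lower exons, -0.59 (SE 0.10, adjusted p = 0.000755), did. Prrt2 counts listed as intronic stood at 399, 441, 526 and 428 CPM in Pilo and 327, 286, 439 and 399 CPM in Mock. These groups overlapped, with a change of 0.31 (SE 0.13, adjusted p = 0.0696, or 0.00076 with the block). That change passed without Mock replicate 3 (adjusted p = 0.0232) or Pilo replicate 1 (0.0445). The difference of -1.82 (SE 0.20, adjusted p = 7.42e-05) rests on the few exonic counts named above. It rests also on many intronic counts for a gene with 522 non-exonic bases. Whether those counts come from introns is not given in the sources used here and was not tested.

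Further members with exons below introns were Syt10 at -1.06, Sv2c at -0.60, Snap29 at -0.58, Pclo at -0.40, Cplx2 at -0.32, Rims2 at -0.31 and Syt5 at -0.28. Syt10, a calcium sensor for growth factor secretion, stood at 11.3 to 16.4 intronic CPM in Pilo and 6.97 to 10.3 in Mock, a rise of 0.64 (SE 0.18, adjusted p = 0.00911), while its exons had 1.01 to 2.45 CPM in Pilo and 1.41 to 3.78 CPM in Mock. The Cplx2 difference was lost without any one of Mock replicates 1, 2 and 3 and Pilo replicates 3 and 4 (up to 0.127) and at 0.0509 without the low-count filter. That of Syt5 was lost without Mock replicate 1 (adjusted p = 0.0594) or Pilo replicate 3 (0.0555). Over all members together, introns held 28.9% to 31.3% of their counts in Pilo and 32.1% to 33.9% in Mock. Over all genes of that table the share was 29.2% to 30.6% in Pilo and 31.9% to 33.7% in Mock.

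Promoter windows from RefSeq (GRCm38.p6, 250 bases before to 50 after a start) were found for 50 members, 63 windows in all. They were searched on both strands for TGACGTCA, the full cAMP response element; TGACG, its shorter form, which is contained in it; and TGANTCA, the AP-1 motif. The full element was in 2 of 63 member windows, in Stxbp3 and Syn1. It was in 1.79% of all 32851 windows and in 2.23% of the 21263 windows of protein-coding genes. TGACG was in 14 of 63 member windows, or 22.2%, in 20.8% of all and in 23.6% of protein-coding windows. It occurred in 4 of the 14 genes with higher exonic RNA that had a window (Stx1a, Stx4a, Stx6 and Vamp4), in 0 of 5 with lower and in 9 of 31 not called. TGANTCA was in 2 member windows (Syt2 and Syt6), or 3.17%, in 7.81% of all and in 6.99% of protein-coding windows. The windows of 4 genes are printed in the direction of transcription to set genes that rose beside one that did not pass, with a match to TGACGTCA or TGACG, on either strand, in capitals. Rims3 (chr4:120854549-120854848, plus strand) rose and holds none of the 3 motifs, Stx4a (chr7:127841558-127841857, plus strand) and Vamp4 (chr1:162570265-162570564, plus strand, the first of its windows) rose and hold TGACG, and Syn1 (chrX:20920869-20921168, minus strand) holds the full element and did not pass.
Rims3: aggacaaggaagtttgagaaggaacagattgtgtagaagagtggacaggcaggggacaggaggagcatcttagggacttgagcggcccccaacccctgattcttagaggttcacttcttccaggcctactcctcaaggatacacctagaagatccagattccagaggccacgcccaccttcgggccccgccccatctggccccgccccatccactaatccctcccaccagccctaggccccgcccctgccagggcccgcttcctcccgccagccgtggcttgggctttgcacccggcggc
Stx4a: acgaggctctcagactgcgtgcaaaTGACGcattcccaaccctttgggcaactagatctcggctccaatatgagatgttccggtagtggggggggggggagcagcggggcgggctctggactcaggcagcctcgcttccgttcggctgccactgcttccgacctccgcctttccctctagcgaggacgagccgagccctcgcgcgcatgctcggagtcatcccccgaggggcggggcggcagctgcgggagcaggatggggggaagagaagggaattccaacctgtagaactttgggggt
Vamp4: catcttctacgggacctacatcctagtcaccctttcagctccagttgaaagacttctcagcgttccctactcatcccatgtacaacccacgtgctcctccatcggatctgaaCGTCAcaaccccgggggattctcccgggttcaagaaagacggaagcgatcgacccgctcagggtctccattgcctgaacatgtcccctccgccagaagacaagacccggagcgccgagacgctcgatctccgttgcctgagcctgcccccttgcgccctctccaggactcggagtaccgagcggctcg
Syn1: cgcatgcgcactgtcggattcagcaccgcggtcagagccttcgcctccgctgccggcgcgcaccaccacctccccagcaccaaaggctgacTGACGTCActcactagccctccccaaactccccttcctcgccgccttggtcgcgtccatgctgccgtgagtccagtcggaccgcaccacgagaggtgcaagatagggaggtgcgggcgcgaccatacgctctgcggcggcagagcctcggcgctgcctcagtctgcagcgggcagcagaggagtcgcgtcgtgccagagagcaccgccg
The matches are descriptions of these letters, and nothing about a factor is drawn from them.

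Beyond the members, a list of 51 other vesicle cycle genes was tested, covering SNAP adaptors, Rab3 and its partners, vesicle membrane proteins, endocytosis and the vesicle proton pump. Of these, 13 (25.5%) were higher, 1 (1.96%) was lower and 37 did not pass, against 15.6% higher and 16.2% lower over all genes and 23.3% and 17.4% over genes at 10 CPM or more. The median exonic log2 fold change of the list was 0.17. With the replicate number as a block, 28 were higher and 4 lower, against 23.8% and 23.2% of all genes in that fit. Without Mock replicate 2, Mock replicate 4 or Pilo replicate 4, 8 were higher. Atp6v1a, the catalytic subunit of the proton pump that loads vesicles, stood at 224, 192, 196 and 201 CPM in Pilo and 132, 108, 141 and 125 CPM in Mock. All Pilo libraries were above Mock, with a log2 change of 0.68 (SE 0.09, adjusted p = 0.000105). Rph3a, which encodes the Rab3 effector rabphilin, rose by 0.48 (SE 0.08, adjusted p = 0.000469), and Rab3c, a vesicle GTPase, by 0.61 (SE 0.10, adjusted p = 0.000605). Sypl, a synaptophysin-like membrane protein, fell by 0.44 on the log2 scale (SE 0.08, adjusted p = 0.00108). With the block, Napb (adjusted p = 0.00546), Stxbp5l (0.00186) and Snapin (0.00121) were also lower. Stxbp5l was lower too with DESeq2 and without Mock replicate 2 or Pilo replicate 1, Snapin without the low-count filter, and Napb without Pilo replicate 3.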

How the data were processed

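The authors deposited raw read counts per gene in both tables. Trimmomatic 0.39, STAR 2.7.1a, HTSeq 0.11.2, edgeR, R 4.1.1 and the mm10 build appear in the submitters' processing notes without their roles. Not given in the sources used here are the annotation, the strand setting and how intronic reads were set apart, so counts of overlapping genes and of close paralogues are uncertain. Of the members, 3 share exonic bases with another gene on the same strand and 16 on the opposite strand (GENCODE vM21). Symbols were matched for 55144 of 55471 Ensembl and 18507 of 18513 Entrez genes. Exonic counts of the 2 tables differed by at most 5% in every library for 61 members, and by more for Prrt2, Stx5a, Stx6, Vamp1 and Vamp5. By correlation of libraries, number 2 of one table was number 3 of the other in Pilo and in Mock (best Pearson r 0.994 to 0.998 over 11708 genes), so replicate numbers are those of the table in question.

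Tests used edgeR 4.0.16 in R 4.3.3 over all genes: the robust quasi-likelihood F-test, TMM, a filterByExpr minimum of 10 counts, and a Benjamini-Hochberg threshold of 0.05. The SE is the fitted log2 coefficient over the root of F. The test between regions was a region by treatment interaction with samples as a covariate. RPKM used GENCODE exon lengths. Same-numbered Pilo and Mock libraries deviated together (r 0.49, 0.624, 0.519 and 0.58), so a fit with the replicate number as a block was run as an alternative. Other alternatives were DESeq2 1.42.0, limma-voom, the exonic columns of the second table, RLE scaling, no low-count filter, a minimum count of 50, and leaving out each library. All 8 libraries were kept apart, as no pair of replicates came near counting noise (chi-square over its degrees of freedom, 10.2 to 34.2). The scripts were tested on simulated data.

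The members and lists were chosen with earlier results of these data known. Named with values in every library were the 14 members of smallest exonic p among those past the test, 12 core fusion genes, and the 6 members of smallest p in the test between regions, 25 in all, of which 2 are not reported here by name. Other members named were chosen after their values were seen. Of the other vesicle cycle list, the 4 genes of smallest p were named. Napb, Stxbp5l and Snapin were named besides, after their values were seen, as genes lower only in alternative fits.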

Additional observations from a re-analysis of the deposited data

Results flagged for a closer look

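Among 46 groups of 4 libraries, covering the exonic CPM of the members named by rule in each treatment, 2 held a library far from the other 3, by Dixon's ratio of the gap to the range at the 95% level. Chance gives about 1 in 20 such groups. Nsf stood at 307 CPM in Pilo replicate 1, against 282 to 284 CPM in the other Pilo libraries. Sv2b stood at 450.0 CPM in the same library, against 333 to 347 CPM in the other Pilo libraries.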

How the results depend on the processing

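The exonic count of 22 members higher and 6 lower ranged over 18 to 22 higher and 3 to 7 lower when 1 library was left out, and over 19 to 31 higher and 5 to 9 lower under the other settings. Without Pilo replicate 4 it was 3 lower. The intronic count of 20 higher and 10 lower ranged over 19 to 21 higher and 7 to 10 lower without a library. With exonic and intronic counts together, 22 higher and 8 lower became 19 to 21 and 6 to 9. Between regions, 7 above and 11 below became 5 to 7 and 9 to 13. With the replicate number as a block, the members called were 31 higher and 9 lower in exons, 31 higher and 16 lower in introns, and 31 higher and 11 lower with both counts together. The block added 12 exonic, 17 intronic and 12 combined calls and lost none. Of the 28 exonic calls, 19 held in every fit without a library. The other vesicle cycle genes, 13 higher and 1 lower, ranged over 8 to 15 higher and 1 to 2 lower without a library, were 28 higher and 4 lower with the block, and were 2 lower with DESeq2 and without the low-count filter.

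Some changes near 0 that did not pass turned their sign when 1 library was left out. Over those fits, exonic Rims1 ranged over -0.0282 to 0.100. The difference between regions ranged over -0.0925 to 0.00379 for Snap25, -0.0417 to 0.0509 for Stx2, -0.0108 to 0.0675 for Stx4a and -0.0652 to 0.0139 for Unc13a, and was 9.18e-05 for Unc13a without the low-count filter. A set of 1827 single-gene values under an alternative covered only part of the members' values. Of these, 1664 kept direction and side of the threshold, 122 lost the call, 31 gained it and 10 reversed. Over all members, the block alone added 12 exonic, 17 intronic and 12 combined calls. The causes of these changes were not tested. Depth limits the members with the fewest exonic counts, Vamp5, Vamp8, Prrt2, Syt10, Unc13d and Cplx3.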
